A study of Homo sapiens with 6 samples.

Results

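The genes described here encode the core of the splicing machinery and its main regulators: 55 genes of the spliceosome, the SR (serine/arginine-rich) proteins and the hnRNP (heterogeneous nuclear ribonucleoprotein) family, out of 19222 autosomal protein-coding genes in the annotation. They were chosen by name and function, with earlier results of these data known. Each was looked up by its symbol in the lists of N-Myc-bound and JMJD6-bound promoters, typical enhancers and super-enhancers. A gene named in no row of a list was counted as not listed. Chromatin immunoprecipitation followed by sequencing (ChIP-seq) had been carried out in CHP-134, a human neuroblastoma cell line, in 3 samples with an antibody against N-Myc (sc-53993) and in 3 samples with an antibody against JMJD6. Both groups were the same line cultured in RPMI medium with serum, with no other treatment given in the labels, and nothing says whether the triplicates came from separate cultures. The paper describes the line as MYCN-amplified, with a gain on the long arm of chromosome 17 that includes JMJD6. SRSF1 and LUC7L3 lie on that arm, and the part of copy number in the lists was not tested. Cells for N-Myc were cross-linked with formaldehyde alone and cells for JMJD6 with disuccinimidyl glutarate and then formaldehyde, so binding and cross-linking cannot be told apart in any difference between the lists.

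A pre-mRNA is spliced by 5 classes of small nuclear RNA packed with protein (snRNPs). The U1 snRNP pairs with the 5′ splice site, SF1 and the U2AF heterodimer mark the branch point and the 3′ splice site, the U2 snRNP then takes the branch point, and the U4/U6.U5 tri-snRNP with the Prp19 complex completes the active enzyme. SR proteins mostly promote and hnRNP proteins often repress the use of nearby splice sites. JMJD6 is a 2-oxoglutarate oxygenase known to hydroxylate lysines in U2AF2 and in LUC7-like and other arginine/serine-rich proteins, and it has also been described as a histone arginine demethylase. N-Myc, the product of MYCN, binds DNA as a dimer with MAX, most often at the canonical E-box CACGTG. The positions below therefore show whether the lists named either protein at the genes of a machinery that 1 of them, JMJD6, is also known to modify as protein.

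The lists give the positions of peaks common to the 3 replicates and of the regions that hold them. They contain no height or score and no reads, so the reads behind any one peak are unknown and for depth the methods give only a lower limit per sample. No value exists per sample, no spread between replicates could be computed and no test was run. Counts of splicing genes are set beside the same count over all 19222 genes. The N-Myc lists held 10172 common peaks and 5114 promoter rows (1 kb on each side of a RefSeq start site), and the JMJD6 lists held 561 peaks and 177 promoter rows. As a check of the cell type, 10 of 11 markers of adrenergic neuroblastoma had an N-Myc-bound promoter or enhancer. DBH had none of the 3 kinds of row. A promoter row was found for 2 of the 11, near the share of all genes (18.3%). Typical enhancers were assigned to 8 (beside 32.7% of all genes) and super-enhancers to 4 (beside 1.36%), HAND2, GATA3 and MYCN among them. MYCN is amplified in this line, and the part of copy number in its rows was not tested. Of 8 markers of blood, liver, endothelial, epithelial and fibroblast cells, 0 had an N-Myc-bound promoter or super-enhancer. A typical enhancer was assigned to 4 of these 8, also a larger share than among all genes. With so few markers, the check is a description only. Coordinates are 1-based on GRCh37 (hg19).

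The following stretches of the GRCh37 reference come from N-Myc peaks at these genes. They are written 5′ to 3′ on the strand of the gene, with CACGTG or, on either strand, CACGCG in capitals (CACGCG reads CGCGTG on the opposite strand). CACGCG is a noncanonical E-box. Distances to a motif are measured to its middle. The first 5 hold the canonical E-box that lay in the widest promoter peak of a gene of the tri-snRNP, of the U1 snRNP or of the hnRNP group. PRPF3 at chr1:150293904-150293933 (plus strand) has its E-box at the listed start site, with the middle 2 bp downstream. LUC7L2 at chr7:139025320-139025349 (plus strand) holds it 230 bp downstream. LUC7L3 at chr17:48796635-48796720 (plus strand) holds it 227 bp upstream, within a super-enhancer. HNRNPA1 at chr12:54675028-54675057 (plus strand) holds it 569 bp downstream in an untranslated exon. PTBP1 at chr19:797162-797191 (plus strand) holds it 215 bp upstream of the listed start site, but in an untranslated exon of the annotated gene.
PRPF3: gccctccttggtCACGTGttgggagacagc
LUC7L2: tacgtcacccctCACGTGggcgctaggtgt
LUC7L3: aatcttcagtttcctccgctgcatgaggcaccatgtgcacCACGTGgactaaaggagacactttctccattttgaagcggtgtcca
HNRNPA1: gataggcagaagCACGTGtcttgttgcgac
PTBP1: ctcagacgccgtCACGTGatcccattttct

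The next pair holds CACGCG and comes from peaks without a canonical E-box; it was chosen after the values were seen, to show the motif that was found in more of these peaks than CACGTG. SNRPB2 at chr20:16710849-16710934 (plus strand) has it 283 bp downstream of the start site, in an intron, and the end of this stretch runs past the end of the peak at 16710920. SRSF7 at chr2:38978637-38978675 (minus strand) has it 5 bp upstream.
SNRPB2: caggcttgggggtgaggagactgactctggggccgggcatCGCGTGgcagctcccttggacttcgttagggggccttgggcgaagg
SRSF7: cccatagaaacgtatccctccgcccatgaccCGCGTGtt

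The last 3 are the centres of N-Myc peaks with neither motif anywhere in the peak. SF3A3 at chr1:38455793-38455873 (minus strand) is shown as a gene whose enhancer list also has a JMJD6 row. HNRNPA2B1 at chr7:26240187-26240216 (minus strand) is the centre of the widest peak of the group, and HNRNPL at chr19:39339842-39339922 (minus strand) is the centre of the narrowest.
SF3A3: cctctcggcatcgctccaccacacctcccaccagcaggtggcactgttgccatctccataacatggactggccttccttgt
HNRNPA2B1: tgaagcgactgagtccgcgatggaggtaac
HNRNPL: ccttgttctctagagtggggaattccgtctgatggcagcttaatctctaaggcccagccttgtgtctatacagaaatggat

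N-Myc was listed at the promoters of 37 of the 55 splicing genes, or 67.3%, where 3527 of all 19222 protein-coding genes (18.3%) had an N-Myc-bound promoter. The 37 genes had 47 promoter rows, and 7 genes had more than 1 row because RefSeq gives them several start sites. The genes with a row were spread over every functional class except the first to read the 3′ splice site. N-Myc was listed at 0 of 3 genes for U2AF and SF1, 7 of 10 for the U2 snRNP, 4 of 6 for the U1 snRNP, 5 of 7 for the Sm core, 6 of 8 for U5, the tri-snRNP and Prp19, 5 of 9 for SR proteins and 10 of 12 for hnRNP proteins with PTBP1. With so few genes per class, the order of the classes is given as a description only.

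**Figure D1:**
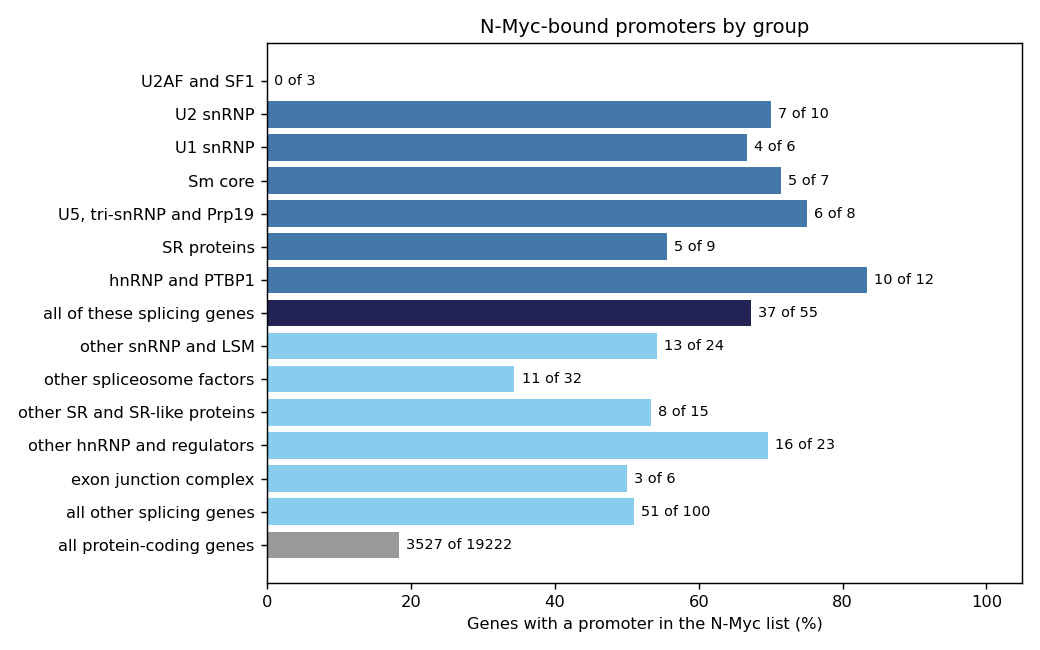
Bars show the percentage of genes in each group with at least 1 promoter row in the N-Myc list, with the counts beside them. Dark blue is all 55 splicing genes, mid blue their functional classes, light blue the 100 other splicing genes by group, and grey all 19222 autosomal protein-coding genes. The bar for U2AF and SF1 is at 0 of 3 and that for hnRNP proteins with PTBP1 at 10 of 12, against 18.3% of all genes.

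Early recognition of the 3′ splice site was the class without a row. With only 3 genes, a count of 0 lies near the share of all genes (18.3%). SF1, which binds the branch point, U2AF1, which reads the AG at the intron end, and U2AF2, which reads the polypyrimidine tract and is the best known splicing substrate of JMJD6, were named in none of the promoter or enhancer lists of either protein. U2AF2 nevertheless had a common N-Myc peak inside the gene, at chr19:56166834-56167349, 516 bp wide. This peak lay in an intron, 1.32 kb from the 5′ end of the gene and 359 bp from the nearest annotated start site, which is outside the 1 kb promoter that the authors took for it. The nearest N-Myc peak was 18.6 kb from a start site of U2AF1 and 31.7 kb from one of SF1.

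In the U2 snRNP, N-Myc was listed for SF3A2, SF3A3, SF3B1, SF3B3 and SF3B5, which belong to the SF3A and SF3B complexes that clamp U2 to the branch point, and for SNRPA1 and SNRPB2, which encode a pair of proteins specific to the U2 particle. The peak at SF3B3 (chr16:70557346-70558306) was 961 bp wide and the fourth widest of those at splicing genes. SF3B1, the SF3B subunit most often mutated in cancer, had a peak of 367 bp (chr2:198299715-198300081) with a CACGTG 40 bp and a CACGCG 4 bp upstream of the start site. It was the single U2 gene of 6 with a peak whose peak held a canonical E-box (16.7%, beside 36.9% of all N-Myc promoter peaks). The promoter row of SNRPA1 overlapped no common N-Myc peak, and the nearest such peak was 163 kb away; among all N-Myc promoter rows, 131 of 5114 (2.56%) overlapped none. SF3A1, SF3B2 and SF3B4 had no row, with the nearest N-Myc peak 34.3, 88.9 and 28.0 kb from a start site.

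Among genes of the U1 snRNP, SNRPA and SNRPC, which encode specific proteins of the U1 particle, and the LUC7-like genes LUC7L2 and LUC7L3 had N-Myc-bound promoters, while SNRNP70 and LUC7L did not. LUC7-like proteins are relatives of a yeast U1 component that helps to choose the 5′ splice site. At LUC7L2 lay 3 peaks, and the one at its first start site (chr7:139025206-139026590, 1385 bp) ranked 21st in width among 3550 N-Myc promoter peaks. That start site is shared with FMC1 and the read-through C7orf55-LUC7L2, so the peak cannot be assigned to LUC7L2 alone. LUC7L, in contrast, had its nearest N-Myc peak 4.83 kb upstream (chr16:284288-284686, 399 bp). SNRPA had a peak of 450 bp upstream of the listed start site with CACGTG at 333 and 292 bp upstream, and a peak of 938 bp downstream with another CACGTG at 891 bp. The peak of 450 bp covered the annotated 5′ end of the gene at 41256542. U1 genes had an E-box in 5 of their 8 promoter peaks, the highest share of any class.

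The Sm proteins form the ring that is shared by the U1, U2, U4 and U5 snRNPs. SNRPB, SNRPD1, SNRPE, SNRPF and SNRPG were listed for N-Myc with peaks 419 to 859 bp wide, all of them covering the listed start site and centred 5 to 131 bp downstream of it. None of the 5 peaks held CACGTG, and those of SNRPE and SNRPF held CACGCG. SNRPD2 and SNRPD3 had no row, with N-Myc peaks no nearer than 45.4 and 78.8 kb.

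For U5 and the tri-snRNP, N-Myc was listed at SNRNP200, the helicase that unwinds U4 from U6, at SNRNP40, at the U4/U6 proteins PRPF3, PRPF4 and PRPF31 and at PRPF6, which bridges U5 with U4/U6. Their peaks ranged from 266 bp at SNRNP200 to 577 bp at PRPF31. PRPF3 alone had a canonical E-box (16.7% of these peaks, beside 36.9% of all N-Myc promoter peaks). PRPF8, the protein at the heart of the catalytic core, and PRPF19, the ubiquitin ligase of the Prp19 complex, were not listed. The nearest N-Myc peak was 31.5 kb from a start site of PRPF8 and 7.06 kb from one of PRPF19.

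SR proteins with an N-Myc-bound promoter were SRSF1, SRSF3, SRSF6, SRSF7 and SRSF10. SRSF1, a splicing factor with oncogenic activity, had a peak of 1681 bp (chr17:56083794-56085474) from 767 bp upstream to 913 bp downstream of its start site, which ranked 9th of 3550. The peak contained no CACGTG and 3 copies of CACGCG, at 39 and 29 bp upstream and 15 bp downstream. SRSF7 had 3 copies of CACGCG and no CACGTG in a peak of 946 bp (chr2:38977862-38978807). None of the 4 SR peaks held a canonical E-box. The row of SRSF6 overlapped no common N-Myc peak, and the nearest one was 55.4 kb away. SRSF4, SRSF5, SRSF9 and SRSF11 had no promoter row, and SRSF11 was the gene farthest from any N-Myc peak, at 338 kb.

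The hnRNP genes were the class listed most often, and HNRNPM and HNRNPU were the exceptions, with the nearest N-Myc peak 18.6 and 13.8 kb from a start site. HNRNPA2B1 had the widest peak of any splicing gene and the second widest of all 3550, at chr7:26239255-26241149 (1895 bp), and it held neither CACGTG nor CACGCG. The peak also covers the promoter of CBX3, which is transcribed in the opposite direction. HNRNPA1 had a peak of 424 bp with CACGTG 426 and 363 bp upstream of its listed start site. That peak covered the annotated 5′ end of the gene at 54673977. A peak of 934 bp (chr12:54674375-54675308) held another CACGTG 569 bp downstream. The CBX5 promoter lies on the opposite strand of the same region, and the pseudogene HNRNPA1P10 was also named there. PTBP1, which with HNRNPA1 and HNRNPA2B1 controls the choice between the PKM exons and is a known target of Myc proteins, had a peak of 429 bp (chr19:796859-797287) that ended 104 bp upstream of the listed start site. The PTBP1 peak covered the annotated 5′ end of the gene at 797075. HNRNPF had 4 promoter rows and a pair of peaks, one of which held CACGTG 38 and 229 bp upstream of a start site. HNRNPL had the narrowest peak, 212 bp at chr19:39339777-39339988, 629 to 840 bp downstream of the start site in an intron. SNRPA, HNRNPF, SF3B1 and the other genes without a role in the naming rule were described after their values were seen.

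**Figure D2:**
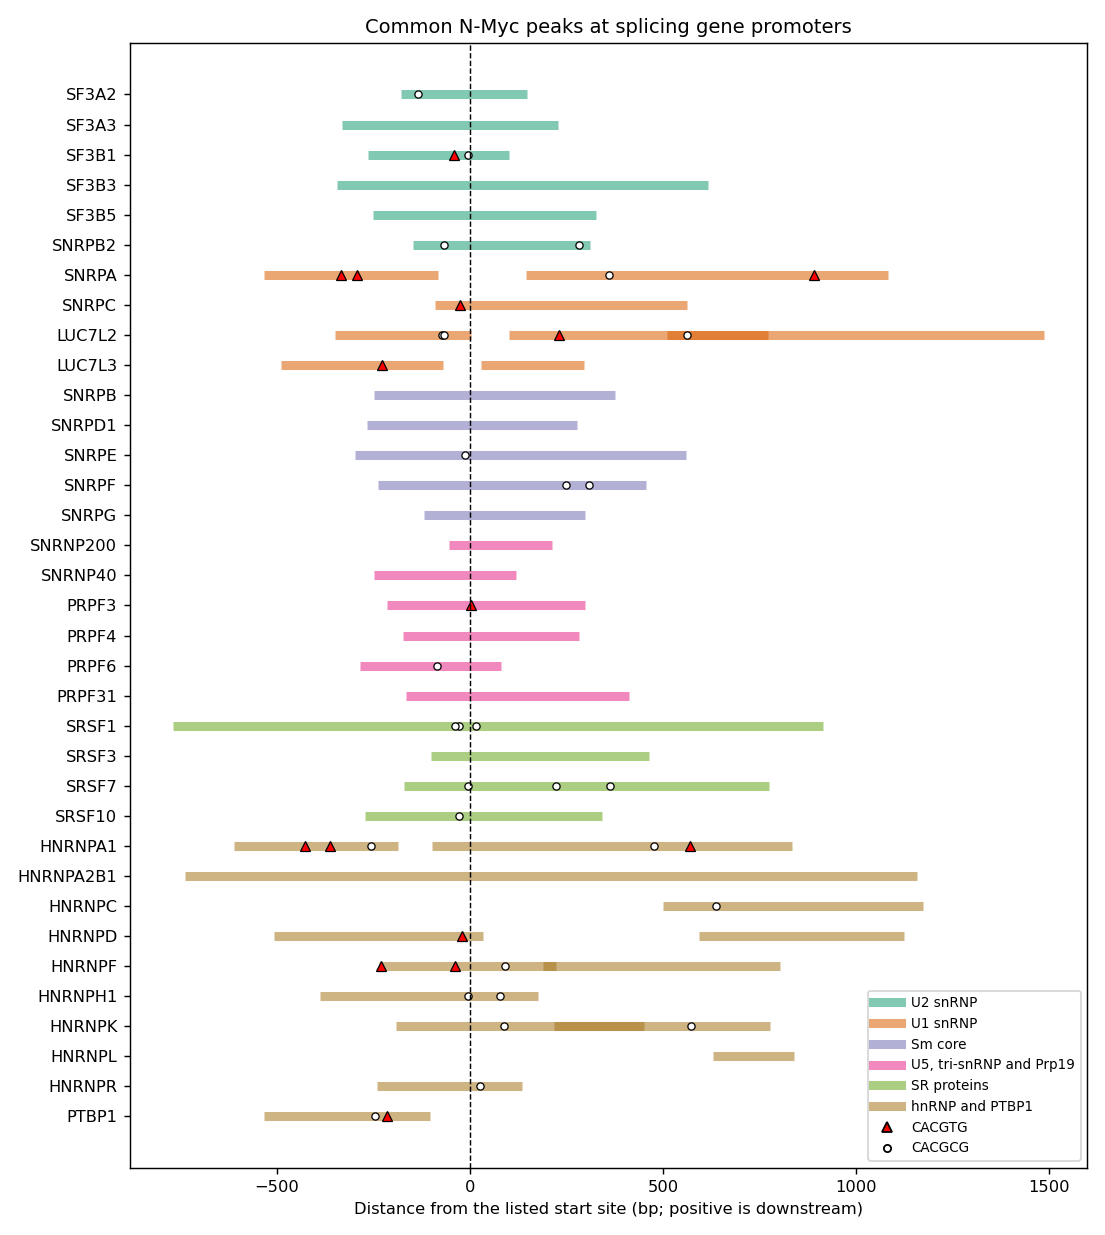
Each bar is a common N-Myc peak over a listed promoter of a splicing gene, drawn in bp from the start site at the centre of the promoter (dashed line, positive values downstream) and coloured by functional class. Genes with several start sites have each peak drawn from its own nearest start site, which makes some bars overlap. Red triangles mark CACGTG and open circles CACGCG: the triangles are absent from the Sm core and SR classes and most frequent in the U1 and hnRNP classes, and the bars of SRSF1 and HNRNPA2B1 extend furthest upstream, and that of LUC7L2 furthest downstream, to 1486 bp. Each class has few peaks, and CACGTG occurred in 36.9% of all 3550 N-Myc promoter peaks.

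The 37 listed genes had 43 common N-Myc peaks over their promoters, at 35 genes. The median width was 545 bp (212 to 1895), beside 452 bp (189 to 2162) over all 3550 N-Myc promoter peaks. GC content was nearly the same, with a median of 58.2% beside 58.3%. Width was the one measure of peak size in the lists, and it also grows where neighbouring peaks merge, so it was not read as strength of binding.

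**Figure D3:**
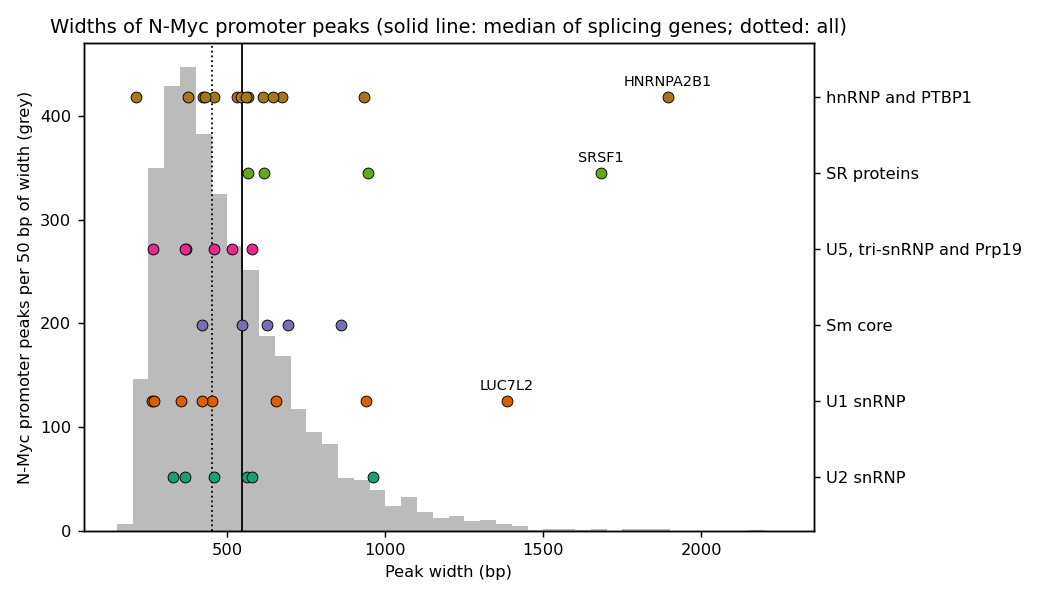
Grey bars count all 3550 N-Myc promoter peaks by width in steps of 50 bp, and coloured points mark the 43 peaks at splicing genes, 1 line per functional class (right axis). Vertical lines give the medians, 545 bp for splicing genes and 452 bp for all promoter peaks, and the 3 named points at the far right are HNRNPA2B1 (1895 bp), SRSF1 (1681 bp) and LUC7L2 (1385 bp).

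Peaks at splicing genes lay slightly further into the gene. The peak centre was downstream of the start site for 29 of 43 peaks (67.4%), with a median of 80 bp downstream, whereas 41.9% of the 4476 gene and peak pairs of the whole list were downstream, with a median offset of -47 bp. The peak covered the start site at 30 of 43 (69.8%), beside 53.5% of all pairs. A promoter on the opposite strand shared the peak in 13 cases (30.2%, beside 22.0%). The partners were PLEKHJ1 and MIR6789 at SF3A2, COG4 at SF3B3, C19orf54 at SNRPA, ZCCHC17 at SNRNP40, CDC26 at PRPF4, TFPT at PRPF31, CBX5 at HNRNPA1, CBX3 at HNRNPA2B1, RMI1 at HNRNPK and a non-coding gene at SNRPF. For these genes the lists cannot say which of the promoters N-Myc bound.

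CACGCG was found in more of these peaks than CACGTG, the reverse of the order in the whole list. CACGTG occurred in 12 of 43 peaks, or 27.9% (exact 95% binomial interval 15.3 to 43.7%, covering counting error only), beside 1309 of 3550, or 36.9%, which lies inside that interval. CACGCG occurred in 21 of 43 peaks (48.8%), beside 1037 of 3550 (29.2%). Either motif was present in 27 of 43 (62.8%) beside 56.9%, so 16 peaks held neither. Both strands were searched, the motifs differ in 1 base, and wider peaks offer more sequence to search. The peaks of splicing genes were also the wider ones at the median, and the part of width in the CACGCG share was not tested.

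The 15 canonical E-boxes in these peaks differed in their flanking bases. TCACGTGA made up 4 of 15 (26.7%), beside 5.94% of the 1583 E-boxes in all N-Myc promoter peaks. ACACGTGA made up 3 (20.0%, beside 4.74%) and CCACGTGA 4 (26.7%, beside 14.9%). CCACGTGC, the most frequent form in the whole list at 18.3%, was found in 0. Within 100 bp of the peak centre lay 8 of the 15 E-boxes (53.3%), beside 57.9% of all. With 15 sites, a single site moves each of these shares by several percentage points.

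Fixed windows around the 5′ ends were also searched, whether or not a peak lay there. The genes were still grouped by N-Myc promoter row, and the windows can hold the same peaks as above. The comparison is therefore not separate from the motif counts in peaks. Within 1 kb of the 5′ end of the gene, CACGTG was present at 14 of the 37 genes with a promoter row (37.8%), at 3 of the 18 without (16.7%) and at 28.7% of all protein-coding genes. CACGCG was present at 27 of the 37 (73.0%), at 5 of the 18 (27.8%) and at 38.8% of all. The 18 unlisted genes had their nearest N-Myc peak at a median of 30.7 kb from a start site, from 0.359 kb at U2AF2 to 338 kb at SRSF11. Of these, 7 had a peak within 20 kb. The distance to the nearest N-Myc peak was not computed over all genes, so these values have no background beside them.

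JMJD6 was listed at the promoter of 0 of the 55 genes, a count that allows a share of up to 5.45% (3 counts of 55, covering counting error only), and at the promoters of 126 of all 19222 genes (0.655%). A JMJD6 promoter row is so rare that 0 of 55 lies near that background share. For none of the genes was a common JMJD6 peak found within 5 kb of a start site in the annotation. Such a peak was also rare over all genes, at 205 of 19222. The nearest JMJD6 peak was a median of 1930 kb away, from 11.0 kb to 35700 kb, beside 2350 kb for all genes. None of the 43 N-Myc promoter peaks overlapped a JMJD6 peak, where 49 of all 3550 (1.38%) did. U2AF2 had its nearest JMJD6 peak 137 kb away, U2AF1 5280 kb and LUC7L 15700 kb. JMJD6 gave far fewer peaks than N-Myc under another cross-linking protocol, and a binding site below the threshold of any 1 replicate would not be listed.

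A JMJD6 peak within 20 kb of a start site was found for 3 of the genes (5.45%, beside 2.08% of all genes). At SNRPD1 the peak was 11.0 kb upstream, at chr18:19180706-19181289 (584 bp), over the promoter of ESCO1, a cohesin acetyltransferase. It did not overlap an N-Myc peak, while the N-Myc peak at SNRPD1 itself (chr18:19191962-19192506) did not overlap a JMJD6 peak. At SF3A3 the peak was 13.4 kb from the nearest start site, at chr1:38412570-38412965 (396 bp), over the promoter of INPP5B, an inositol polyphosphate phosphatase, and N-Myc was listed at the identical interval. At SNRPA it was 13.7 kb away, at chr19:41283143-41283899 (757 bp), overlapping the genes MIA and MIA-RAB4B, with no N-Myc overlap. None of the 3 JMJD6 peaks held a canonical E-box.

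Typical enhancers are stretches with H3K27ac, the acetylation found at active regulatory DNA, joined where they lie close together, and each was assigned to its nearest genes. N-Myc-bound typical enhancers were assigned to 34 of the 55 genes (61.8%) in 41 rows, beside 6294 of all 19222 genes (32.7%). Most of these were the promoter regions again. The region overlapped the gene's own N-Myc-bound promoter in 31 of 41 rows (75.6%), beside 25.8% of the 8892 gene and enhancer pairs of the whole list, and its centre was a median of 0.708 kb from the gene start beside 46.0 kb. The median length was 3.07 kb beside 2.55 kb. When regions over any listed promoter were left out, 5 of the 55 genes kept an enhancer (HNRNPL, SNRPA1, SNRPB2, SRSF3 and SRSF5), beside 2778 of all genes (14.5%).

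SRSF3, which encodes a small SR protein, had the most typical enhancers. One lay over its promoter, and the others were centred 43.3 kb (chr6:36603922-36606989, 3.07 kb long) and 72.8 kb (chr6:36622370-36647612, 25.2 kb long) downstream, toward CDKN1A, the gene of the cell cycle inhibitor p21, to which all 3 were also assigned. HNRNPL had an enhancer over its promoter and a short one, 0.446 kb, 19.4 kb upstream. PRPF3 had a second enhancer 43.1 kb downstream and SF3A3 a second one at INPP5B. SNRPA1 had one 160 kb upstream (chr15:101991993-101999588, 7.60 kb), nearer to PCSK6, and SNRPB2 one 69.5 kb upstream (chr20:16627970-16654307, 26.3 kb). SRSF5 and LUC7L had an enhancer without a promoter row, at 33.6 and 2.40 kb upstream. Of the 41 enhancers, 3 overlapped no common N-Myc peak (1 each at SNRPA1, SNRPB2 and SRSF6), as did 144 of all 4649.

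**Figure D4:**
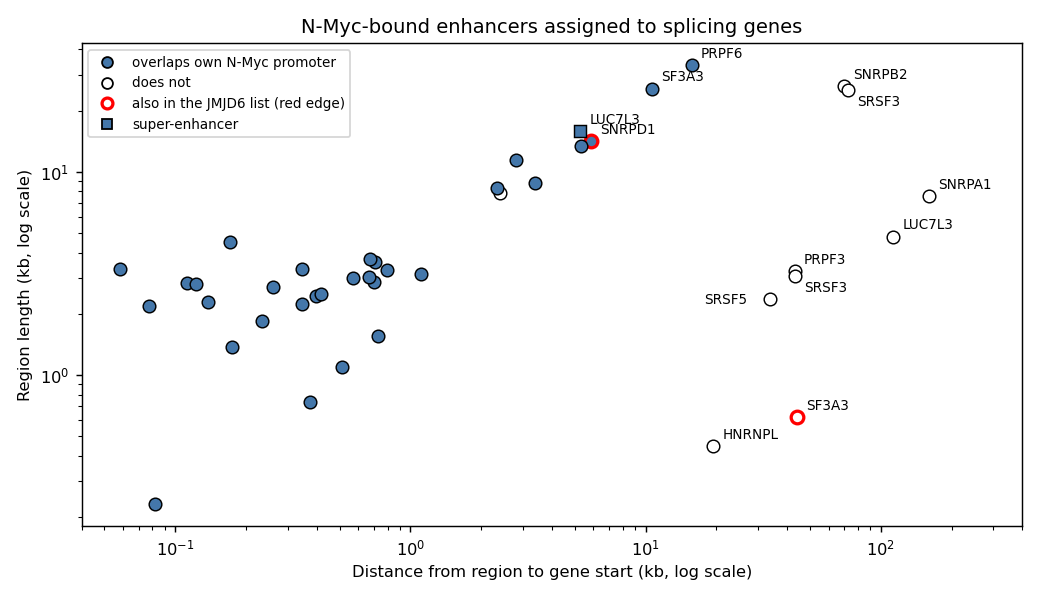
Each point is an N-Myc-bound typical enhancer (circle) or super-enhancer (square) assigned to a splicing gene, with the distance from its centre to the gene start (kb, log scale) against its length (kb, log scale). Filled points overlap the gene's own N-Myc promoter, and red edges mark regions also listed for JMJD6 (SNRPD1 and SF3A3). Filled points crowd below about 1 kb, and the named open points to the right, among them the pair of distal SRSF3 regions, lie 19.4 to 160 kb away.

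JMJD6-bound typical enhancers were assigned to 2 of the 55 genes, SF3A3 and SNRPD1, beside 181 of all 19222 genes (0.942%). Both regions were bound by N-Myc as well, which was usual, since 65 regions were listed for both proteins beside 96 for JMJD6. The SF3A3 region (chr1:38412443-38413063) is the INPP5B promoter, 43.8 kb downstream of the SF3A3 start. The SNRPD1 region (chr18:19179286-19193452, 14.2 kb) joins the ESCO1 promoter, where the JMJD6 peak lay, with the SNRPD1 promoter, where the N-Myc peak lay. In both, the JMJD6 peak was at the promoter of the neighbouring gene.

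A super-enhancer was assigned to 1 of the 55 genes, LUC7L3, beside 262 of all genes (1.36%). It covered 15.8 kb at chr17:48783750-48799533, included the LUC7L3 start site, was assigned to the neighbouring ANKRD40 as well, which was named first, and held 5 common N-Myc peaks and 0 JMJD6 peaks. A pair of these peaks were the LUC7L3 promoter peaks of 419 and 269 bp, the first of which holds the E-box printed above. A typical enhancer of LUC7L3 with N-Myc lay a further 113 kb downstream.

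In all, 39 of the 55 genes had a promoter or enhancer row for N-Myc, and 16 had none in any list. The same combined count was not made over all genes, where 18.3% had a promoter row and 32.7% a typical enhancer row. The 16 were U2AF1, U2AF2, SF1, SF3A1, SF3B2, SF3B4, SNRNP70, SNRPD2, SNRPD3, PRPF8, PRPF19, SRSF4, SRSF9, SRSF11, HNRNPM and HNRNPU. Several of them encode direct partners of listed genes: SF3B2 and SF3B4 sit in 1 complex with SF3B1, SF3B3 and SF3B5, and SNRPD2 and SNRPD3 in 1 ring with SNRPD1.

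A second list of 100 splicing genes outside the 55 was looked up in the same way. N-Myc was listed at the promoters of 51 (beside 18.3% of all genes), including 13 of 24 other snRNP and LSM genes, 11 of 32 other spliceosome factors, 8 of 15 other SR and SR-like genes, 16 of 23 other hnRNP genes and regulators and 3 of 6 genes of the exon junction complex. N-Myc-bound typical enhancers were assigned to 64 (beside 32.7%) and super-enhancers to 3 (beside 1.36%). JMJD6 had a promoter row for 1 of the 100, a share near that of all genes (0.655%). This was HNRNPUL2, an hnRNP U-like protein gene, with a peak at chr11:62494916-62495694 (779 bp) that overlapped no N-Myc peak. It also had an enhancer row for HNRNPUL2, over that promoter, and one for SMNDC1, a survival motor neuron related splicing factor, at a region 95.1 kb away over the promoter of MXI1 (chr10:111967775-111971366), where N-Myc was listed too.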

How the data were processed

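ChIP-seq samples from CHP-134 cells were grouped by antibody. Per the labels and methods, the authors aligned reads to hg19 with BWA, called peaks in each replicate against input with MACS2 2.1.1.20160309 (q-value maximum 0.05), kept peaks found in all 3 replicates, took promoters from RefSeq, enhancers with ROSE and nearest genes with GREAT. The deposited lists hold positions in bp and gene names, with no value per sample, so replicates could not be compared, and for depth only a lower limit per sample is given in the methods.

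The 55 genes, their classes, the second list of 100 and the questions were chosen with earlier results of these data known. Symbols were matched to GENCODE version 44 lifted to GRCh37, older symbols through RefSeq names (GRCh38.p14). Of 4150 symbols in the N-Myc promoter list, 3531 matched a protein-coding gene, and 44 of 47 promoter rows of the splicing genes (93.6%) were centred within 100 bp of an annotated start site. Overlap meant at least 1 bp. Motifs were counted on both strands of the reference. Genes named were those with a JMJD6 or super-enhancer row, the widest peaks, the most E-boxes or the most enhancers, no promoter row, and U2AF1, U2AF2, LUC7L, SRSF1, HNRNPA1, HNRNPA2B1 and PTBP1 whatever their values. The rule on E-boxes named none, since too many genes were tied. Intervals are exact (Clopper-Pearson) at 95%, except that the upper limit for the JMJD6 promoter count of 0 was set at 3 counts. Python 3.11.15, pysam 0.24.0, SciPy 1.17.1 and matplotlib 3.10.9 were used, and the searches were tested on simulated data. Some cell type markers are not reported here by name.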

Additional observations from a re-analysis of the deposited data

How the results depend on the processing

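The number of splicing genes with an N-Myc-bound promoter, 37 as listed, was 35 when the row had to overlap a common peak or hold its midpoint, 28 with peaks at least as wide as the median of the list, 36 with a peak within 500 bp of an annotated start site (which gained U2AF2 and lost SNRPA1 and SRSF6) and 37 with symbols as given. The share of all genes, 18.3%, was 10.2% with long non-coding genes included and 19.7% with a peak within 500 bp. Genes with an N-Myc-bound typical enhancer fell from 34 to 16 where the gene had to be named first and to 5 where regions over listed promoters were left out, which also took the JMJD6 count from 2 to 0. The counts by peak overlap, by width and by first name were not made over all genes, so they have no background beside them. The super-enhancer count went from 1 to 0 where the gene had to be named first. The E-box share, 27.9%, was 62.8% with CACGCG added, 14.0% within 100 bp of the peak centre and 25.7% for the widest peak per gene. The median width was 566 bp for the widest peak per gene, the median distance from start site to peak centre was 131 bp, or 73 bp to the nearest annotated start site, and the count of other splicing genes was 51, or 50 with a peak within 500 bp, an alternative chosen after seeing the data. Without scores, a stricter peak threshold could be imitated by width alone. No paired analysis was possible because the lists hold no value per sample, and for the same reason no replicate could be left out.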
